A study of Mus musculus with 18 samples.

Results

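Genomic imprinting leaves a gene expressed mainly from the copy of 1 parent, and many imprinted genes act on growth before and shortly after birth. Of the 10 genes described here, the paternally expressed growth factor gene Igf2 and the maternally expressed non-coding RNA H19 share enhancers at 1 locus. Igf2 acts through the IGF1 receptor and the insulin receptor, the adaptor Grb10 dampens signalling from these receptors, and Cdkn1c (p57) holds cyclin-dependent kinases and lets cells leave the cell cycle. The zinc finger factors Plagl1 and Peg3, the enzyme-like protein Mest, the growth suppressor necdin (Ndn), the transmembrane protein Dlk1 and its neighbouring maternally expressed RNA Meg3 complete the set. In the lens, Cdkn1c is known for its part in the withdrawal of fibre cells from the cell cycle, and insulin-like growth factors are known to act on lens epithelial cells.

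The genes were taken by their symbols from the deposited count table of the series, which lists 40800 gene identifiers, and they are 10 genes, each with 1 identifier except Dlk1 with 2. All mice were C57BL/6J, an inbred strain, so the counts do not tell the parental copies apart. RNA came from lenses pooled for each library. The 2-day-old mice were WT, het or homo for the knock-in allele Cryaa-R49C, and the 14-day-old mice were WT, het or homo for the knock-in allele Cryab-R120G, with 3 poly-A libraries in each of the 6 groups. The arginine changes lie in the 2 alpha-crystallins, the chaperones of the lens, and C57BL/6J mice of the same age served as WT. Line and age change together, so they cannot be told apart between the 2 sets of 9 libraries, except that the WT lenses carry neither allele. The genotype field of the 6 Cryab mutant libraries names the other line, and their groups were taken from the titles.

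Library totals lay between 14272174 and 24639638 counts at day 2 and between 17478028 and 29639719 at day 14. Crystallin genes held 23.8% to 61.4% of the counts at day 2 and 60.1% to 76.1% at day 14. A single non-coding gene, Gm42418, held 2.53% to 42.6% at day 2, both ends being homo libraries, and 7.97% to 23.2% at day 14. Of 10 lens fibre markers 9 were detected. Their summed level was 5192 to 8715 CPM (read counts scaled to library size) in WT lenses at day 2 and 54740 to 62960 CPM at day 14. The fibre gene Lim2 was at 0 in every library, which does not show that the lens lacks its RNA, and the cause was not tested. Levels are CPM after edgeR's TMM scaling, which sets each library so that the typical gene does not shift. Calls use edgeR's quasi-likelihood test over 13938 genes with an adjusted p of at most 0.05, and the adjusted p is that value throughout. In bulk lenses, fewer cells of a type and less RNA per cell cannot be told apart.

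Counts were found for 9 of the 10 genes, and all 9 passed the filter on low counts. Dlk1 was listed at 0 in all 18 libraries under both of its Ensembl identifiers. Among protein-coding symbols listed under more than 1 identifier, 47 of 62 (75.8%) had no counts, against 3970 of 21740 (18.3%) of those with 1 identifier. Only reads that fell on a single gene were counted, so the 0 of Dlk1 does not show that the lens lacks its RNA, and the cause was not tested.

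On the GRCm38 assembly, H19 (chr7:142575529-142578143, minus strand), Igf2 (chr7:142650766-142666816, minus strand) and Cdkn1c (chr7:143458339-143461050, minus strand) lie close together on chromosome 7. Peg3 (chr7:6703892-6730431, minus strand) and Ndn (chr7:62346569-62350262, plus strand) lie elsewhere on that chromosome. Dlk1 (chr12:109452823-109463336) and Meg3 (chr12:109541001-109571726) are neighbours on the plus strand of chromosome 12. Plagl1 (chr10:13060504-13131694, plus strand), Grb10 (chr11:11930508-12038683, minus strand) and Mest (chr6:30723547-30748465, plus strand) stand at loci of their own. Mest shares 23.1% of its exonic bases with Copg2 on the opposite strand, and the strand setting of the counting is not stated, so reads of these bases cannot be assigned with certainty. Copg2 itself was near level across age, with a log2 difference of 0.16 (SE 0.20, adjusted p = 0.616 by edgeR). The annotation also sets 62.8% of the exonic bases of Igf2 in Gm49394, on the same strand, and 30.7% of those of Cdkn1c opposite Gm44732, and neither gene was analysed here.

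The starts of imprinted genes are often rich in CG pairs, where methylation marks the silent copy. RefSeq promoter windows of the GRCm38.p6 build, each of 300 bases, were at hand for 8 of the 10 genes and 15 starts in all. The number of CG pairs ran from 45 in the first Grb10 window and 26 in that of Plagl1 to 1 in the second Meg3 window, against a median of 7 over all 32851 windows. The 250 bases before the start are shown, with CG pairs in capitals, for Plagl1, Grb10 and Igf2 as members that fell strongly between the ages (for genes with several starts, the window with the most CG pairs) and for Ndn as the member that rose.
Plagl1 (chr10:13090582-13090831, plus strand): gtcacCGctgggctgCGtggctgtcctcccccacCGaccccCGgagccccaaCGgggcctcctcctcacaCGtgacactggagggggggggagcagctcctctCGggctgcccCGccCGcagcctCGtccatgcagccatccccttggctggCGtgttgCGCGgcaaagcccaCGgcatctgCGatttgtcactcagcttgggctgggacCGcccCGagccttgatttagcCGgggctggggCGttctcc
Grb10 (chr11:12037421-12037670, minus strand): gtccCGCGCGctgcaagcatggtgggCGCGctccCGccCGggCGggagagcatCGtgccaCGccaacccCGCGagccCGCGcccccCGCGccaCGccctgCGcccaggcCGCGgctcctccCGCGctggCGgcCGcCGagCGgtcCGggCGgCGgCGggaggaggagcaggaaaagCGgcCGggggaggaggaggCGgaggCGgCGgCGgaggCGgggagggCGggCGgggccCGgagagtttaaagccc
Igf2 (chr7:142658805-142659054, minus strand): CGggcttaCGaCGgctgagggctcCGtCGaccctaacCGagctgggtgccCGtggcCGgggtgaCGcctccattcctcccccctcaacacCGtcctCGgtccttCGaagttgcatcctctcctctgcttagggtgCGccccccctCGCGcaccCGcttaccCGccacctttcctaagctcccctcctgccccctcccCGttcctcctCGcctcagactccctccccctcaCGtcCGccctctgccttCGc
Ndn (chr7:62348027-62348276, plus strand): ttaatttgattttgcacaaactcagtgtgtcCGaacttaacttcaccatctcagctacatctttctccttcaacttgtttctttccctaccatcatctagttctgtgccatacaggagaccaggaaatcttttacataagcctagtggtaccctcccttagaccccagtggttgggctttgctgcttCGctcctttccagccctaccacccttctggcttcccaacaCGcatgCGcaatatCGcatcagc
These stretches held 19 CG pairs for Plagl1, 40 for Grb10, 22 for Igf2 and 5 for Ndn.

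The sequence GGGGCCCC, known as a site of Plagl1, was searched on both strands and was found in 1 of the 15 windows, that of Peg3, with its first base at position -201 from the start. It occurs in 1.08% of all windows. GCCATNTT, the core of the YY1 site known from the Peg3 control region, was found in none of the 15 windows and in 6.05% of all windows. A match is a run of letters and not a shown site. The Peg3 stretch is given with the match in capitals.
Peg3 (chr7:6730420-6730669, minus strand): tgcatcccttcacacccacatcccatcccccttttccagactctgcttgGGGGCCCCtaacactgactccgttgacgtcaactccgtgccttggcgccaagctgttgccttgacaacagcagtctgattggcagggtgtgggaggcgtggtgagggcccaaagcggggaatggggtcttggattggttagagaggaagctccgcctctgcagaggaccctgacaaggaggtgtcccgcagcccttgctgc

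Some members also carry microRNA genes inside them, and these are shown because their hosts changed between groups. The mature sequences are RefSeq's, with the seed, bases 2 to 8, in capitals. miR-675 lies in an exon of H19, miR-335 in an intron of Mest, miR-483 in an intron of Igf2 and miR-770 in an annotated exon of Meg3.
mmu-miR-675-5p: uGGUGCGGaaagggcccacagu
mmu-miR-675-3p: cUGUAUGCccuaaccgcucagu
mmu-miR-335-5p: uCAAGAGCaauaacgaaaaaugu
mmu-miR-335-3p: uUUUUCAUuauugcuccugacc
mmu-miR-483-5p: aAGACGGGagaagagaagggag
mmu-miR-483-3p: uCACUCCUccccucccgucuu
mmu-miR-770-5p: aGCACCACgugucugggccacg
mmu-miR-770-3p: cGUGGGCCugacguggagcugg
No pair of the 8 shares a seed. The hairpins of miR-675, miR-483 and miR-770 had 0 counts in every library and that of miR-335 at most 1. Poly-A libraries are not made to capture mature microRNAs, and the values below are those of the host genes.

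At day 2, Cdkn1c was by far the most abundant of the 9 genes. Per kilobase of exon, a scale that takes gene length into account, it reached 94.5 ± 28.0 CPM per kb (SD, n = 3) in WT lenses. Ndn stood at 12.6 ± 0.864, H19 at 8.80 ± 1.37 and Mest at 6.33 ± 0.0840. Igf2 followed at 4.68 ± 0.556 CPM per kb, then Peg3 at 3.01 ± 0.417, Grb10 at 1.45 ± 0.315 and Plagl1 at 0.920 ± 0.380. Meg3 was the lowest, at 0.0822 ± 0.0148, over an exon length of 18089 bases that joins many isoforms. Of neighbours in this order, Grb10 and Plagl1 overlapped between libraries and the others did not. The authors describe fewer reads at the start of transcripts, and the part of this in the order was not tested.

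At day 14 Cdkn1c and Ndn kept the first places in WT lenses, with 83.3 ± 6.09 and 21.0 ± 2.35 CPM per kb (SD, n = 3). Mest came next at 3.14 ± 0.630 and Peg3 at 1.33 ± 0.154. H19 had moved from the third to the fifth place, at 0.452 ± 0.107 CPM per kb. H19 and Igf2, Igf2 and Grb10, and Plagl1 and Meg3 overlapped with their neighbour in the order.

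**Figure D1:**
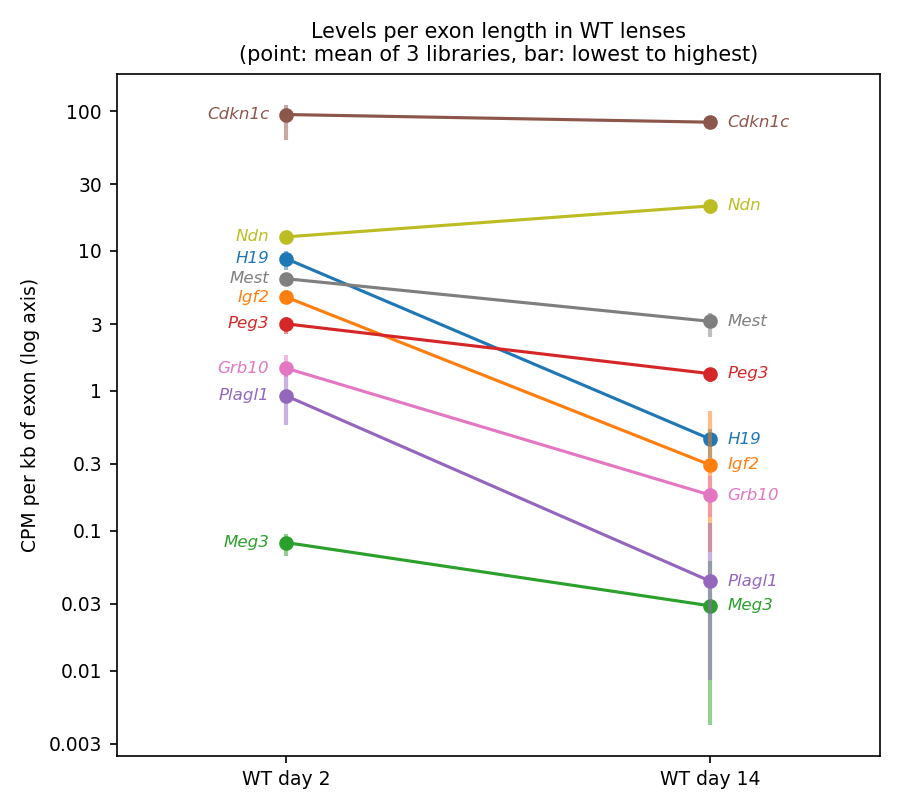
Level of 9 imprinted growth genes in WT lenses at day 2 and day 14, in CPM per kilobase of exon on a log axis, with the mean of 3 libraries as a point and the lowest to highest library as a bar. Cdkn1c stays near the top at both ages, Ndn is the only line that rises (with library totals alone it falls), H19 drops below Mest, and H19 and Igf2 drop below Peg3.

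Between the WT lenses of the 2 ages, 6 of the 9 genes were lower at day 14 (H19, Igf2, Plagl1, Grb10, Peg3 and Mest), 1 was higher (Ndn), and Meg3 and Cdkn1c did not pass the test. Over all tested genes, 11.5% were called lower and 11.7% higher. The libraries of the ages did not overlap for 8 of the 9 genes, and for 43.2% of all tested genes. Plagl1 and Meg3, with few counts at day 14, met the filter on low counts through their day-2 libraries, so they could be tested only as genes with more counts at day 2. These are changes relative to the typical gene. With libraries scaled by their total alone, the median over all genes was a log2 fold change of -1.61 in place of -0.07.

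H19 stood at 24.4, 22.6 and 17.9 CPM in WT replicates 1, 2 and 3 at day 2. In the day-14 WT libraries it stood at 1.32, 1.20 and 0.816 CPM. The groups were far apart, and the level at day 14 was 0.0510 of that at day 2, a log2 fold change of -4.29 (SE 0.34, adjusted p = 1.16e-08). All 9 day-2 libraries, from 10.9 to 24.4 CPM, lay above all 9 day-14 libraries, from 0.550 to 1.89 CPM.

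Igf2 gave 30.3, 26.1 and 24.0 CPM in the day-2 WT libraries. At day 14 it gave 4.07, 0.400 and 0.593 CPM, from 37, 6 and 8 counts. Its log2 fold change was -4.14 (SE 0.73, adjusted p = 0.00115), and without replicate 1 of the day-14 WT lenses it was -5.75. That library also held 792 CPM of summed photoreceptor markers, against 21.5 and 81.8 CPM in replicates 2 and 3, and 67.2 CPM of inner retina and glia markers, against 9.07 and 12.5 CPM. The part of these cells in its Igf2 level was not tested.

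Plagl1, the zinc finger factor that is known to act on Igf2 and H19, stood at 4.47, 6.75 and 10.4 CPM in day-2 WT lenses. At day 14 it was at 0.881, 0.0667 and 0.0742 CPM, from 8, 1 and 1 counts. The groups did not overlap, and the fitted log2 fold change was -4.66 (SE 0.68, adjusted p = 8.68e-05), or -6.58 without replicate 1 of the day-14 WT lenses. Because these counts are low, the ratio of pooled counts is the plainer value: 10 counts against 601, or 27.6-fold lower with an exact 95% interval of 14.9 to 57.9 for counting error alone. Replicate 3 of the day-2 WT lenses, with the highest Plagl1, also had the highest inner retina and glia sum, 102 CPM against 42.5 and 38.4 CPM, and the highest skeletal muscle sum, 34.9 CPM against 1.79 and 1.92 CPM, and the part of these was not tested.

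Grb10, the adaptor that restrains insulin and IGF receptors, was at 11.7, 11.4 and 16.5 CPM at day 2 and at 1.54, 1.13 and 2.23 CPM at day 14. All WT libraries of day 14 lay below those of day 2. The log2 fold change was -3.01 (SE 0.28, adjusted p = 1.39e-07), to 0.124 of the day-2 level.

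Smaller falls were measured for Peg3 and Mest. Peg3 gave 41.6, 44.8 and 34.0 CPM at day 2 and 19.4, 15.4 and 18.2 CPM at day 14, with no overlap and a log2 fold change of -1.18 (SE 0.23, adjusted p = 0.000800). Mest gave 25.0, 25.3 and 24.7 CPM, a narrow range, and then 13.3, 14.3 and 9.57 CPM. Its log2 fold change of -1.01 (SE 0.33, adjusted p = 0.0284) lost its call, with an adjusted p of 0.0596 to 0.125, when any 1 of the 3 day-2 WT libraries or replicate 3 of the day-14 WT libraries was left out.

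Meg3, at 28, 46 and 49 counts in the day-2 WT libraries, did not pass the test. It stood at 1.19, 1.55 and 1.72 CPM, and at day 14 at 1.10, 0.400 and 0.0742 CPM, from 10, 6 and 1 counts. The libraries did not overlap, but the log2 difference of -1.62 (SE 0.61) had an adjusted p of 0.0582. DESeq2's test, with an adjusted p of 0.0400, called it.

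Cdkn1c had 224, 227 and 127 CPM at day 2 and 180, 156 and 173 CPM at day 14. The day-14 libraries lay inside the range of the day-2 libraries, with a log2 difference of -0.18 (SE 0.29, adjusted p = 0.693). With library totals alone the difference became -1.67, beside a median of -1.61 over all genes.

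Ndn, the member with the tightest replicates after Mest at day 2, gave 46.1, 50.0 and 43.7 CPM there and 68.0, 85.0 and 79.6 CPM at day 14. It was higher at day 14 relative to the typical gene by 0.74 on the log2 scale (SE 0.20, adjusted p = 0.00943), whereas with library totals alone its direction turned to -0.81, which is still 0.81 above the median gene of that scaling. Keeping every gene with a count moved its adjusted p to 0.0561.

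**Figure D2:**
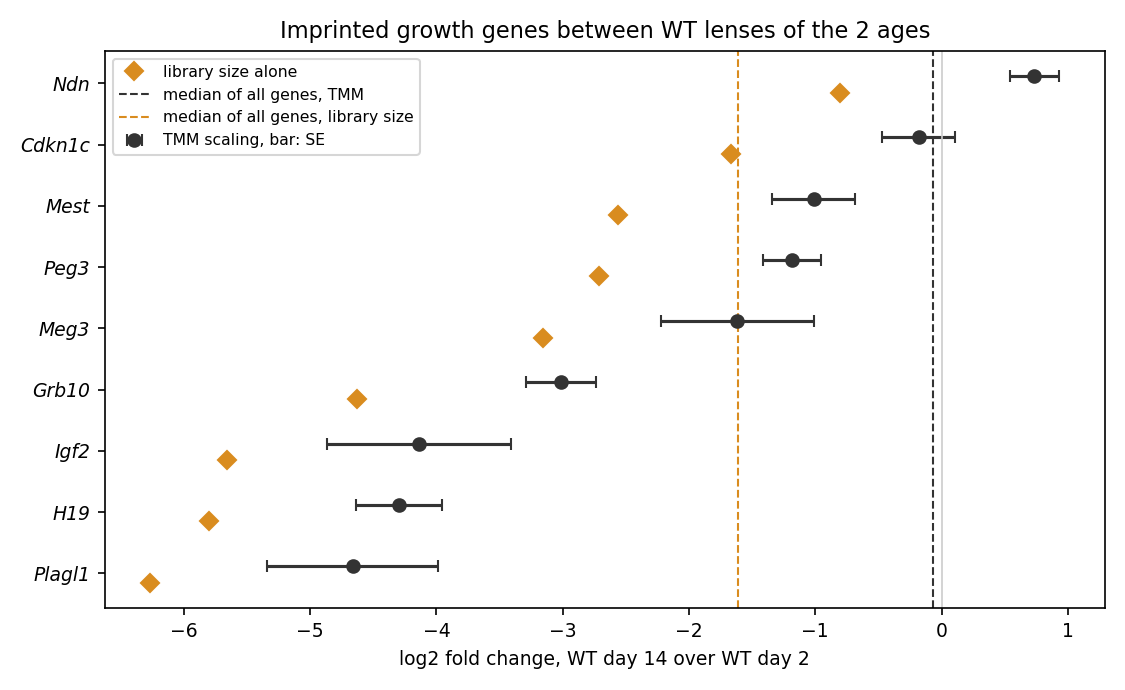
Log2 fold change of 9 imprinted growth genes from WT day 2 to WT day 14, with TMM scaling (circles, bars are SE) and with library totals alone (diamonds), and the median of all genes under each scaling as a dashed line. Ndn lies right of both medians, Cdkn1c near both, and the other 7 genes left of both.

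Other genes of the same themes give the setting of these changes in the WT lens. Of 14 proliferation genes tested, 13 were lower at day 14 and none higher, with a median log2 fold change of -2.11 against -0.07 over all genes. The largest falls were those of the topoisomerase gene Top2a (-2.95, adjusted p = 1.07e-06), the mitotic kinase gene Aurkb (-2.94) and Mki67 (-2.75). Of 16 other fetal growth regulators, 9 were lower and 0 higher, with a median of -1.45. The filter on low counts was met through day-2 libraries alone by Aurkb and Ccnb1 of the called proliferation genes and by Sox11 and Gpc3 of the called growth regulators, which could thus be tested only as genes with more counts at day 2. The growth regulators were led by the transcription factor gene Sox11 (-5.54, SE 0.58, adjusted p = 2.98e-06) and included the glypican gene Gpc3 (-2.19), which is known to limit growth, Sox4 (-1.92) and the growth factor gene Mdk (-1.66).

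Within the IGF system, 5 of 17 tested genes were lower at day 14 and 4 higher, with a median of -0.51 against -0.07 over all genes, where 11.5% were lower and 11.7% higher. The ligand gene Igf1 was lower, with a log2 fold change of -2.45 (SE 0.67, adjusted p = 0.0133), and the binding protein genes Igfbp3 and Igfbp4 (-2.72) and the protease inhibitor gene Stc1 were lower as well. Igfbp3 had 1 count in all day-14 WT libraries against 77 at day 2, or 35.4-fold lower with an exact 95% interval of 6.17 to 1417 for counting error alone, and Stc1 had 5 against 127, or 11.7-fold lower (4.88 to 36.6). Igfbp3, Stc1 and Grb14, the other gene called lower, met the filter through day-2 libraries alone. The 4 higher genes, named after their values were seen, were the protease gene Htra1 (1.97), Igfals (1.62), which codes for a partner of IGFs in serum, and the binding protein genes Igfbp7 (1.15) and Igfbp5 (0.98). The receptor gene Igf1r, with a log2 difference of -0.54 (adjusted p = 0.199), and Igf2r, which clears IGF2 and is itself imprinted, with -0.88 (adjusted p = 0.0677), did not pass. Among 4 tested inhibitors of cyclin-dependent kinases beside Cdkn1c, Cdkn2c was higher at day 14 by 2.37 on the log2 scale (SE 0.31, adjusted p = 1.13e-05).

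Of 39 other imprinted genes tested, 4 were lower at day 14, 3 were higher and 32 were not called, with a median of -0.15 against -0.07 over all genes. Peg12 had 4 counts in all day-14 WT libraries against 169 at day 2, or 19.4-fold lower (exact 95% interval 7.45 to 72.1, counting error alone), and the small proteoglycan gene Dcn had 6 against 84, or 6.44-fold lower (2.84 to 18.04). The actin nucleator gene Cobl, a neighbour of Grb10, changed by -1.61 on the log2 scale and Ppp1r9a by -1.53. Of these, Peg12, Dcn and Cobl met the filter through day-2 libraries alone. The 3 higher genes, named here after their values were seen, were Slc22a18 (1.41), Herc3 (1.16) and Commd1 (0.90). Among 12 factors that maintain imprints or act on DNA methylation, demethylases included, 4 were lower and 0 higher. Uhrf1, which brings the methyltransferase to newly copied DNA, was at -3.05 (SE 0.41, adjusted p = 1.78e-05). The maintenance methyltransferase gene Dnmt1 was at -1.07 and Smchd1 at -0.99. Zfp57, which binds imprinted control regions, had 6 counts in all day-14 WT libraries against 70 at day 2, or 5.37-fold lower (exact 95% interval 2.35 to 15.1, counting error alone). Uhrf1 and Zfp57 met the filter through day-2 libraries alone.

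Marker genes of other cell types moved between the same WT lenses. Of the vessel and mesenchyme markers tested, 8 of 12 were lower at day 14, and their summed level went from 60.1 to 90.8 CPM down to 25.7 to 33.2 CPM, with Lum at 0 in the day-14 WT libraries. All 8 macrophage and microglia markers and 5 of 8 pigment and ciliary epithelium markers were lower, while 6 of 9 fibre markers and 6 of 9 photoreceptor markers were higher. The filter on low counts was met through day-2 libraries alone by 7 of these 8 macrophage and microglia markers, by Tyr and Mlana of the pigment and ciliary epithelium markers and by Cdh5 of the vessel and mesenchyme markers, and through day-14 libraries alone by 2 of the 6 photoreceptor markers. Of the skeletal muscle markers 0 of 5 were called by edgeR (3 at an unadjusted p under 0.05 and 3 by DESeq2), and Myh3, Myh8, Tnnt3 and Myog were at 0 in the day-14 WT libraries. Of the lens epithelium markers 2 of 8 were lower and 0 higher, of inner retina and glia markers 3 of 11 were lower, and of erythrocyte markers 0 of 5 and of corneal epithelium markers 0 of 1 were called by edgeR, by DESeq2 or at an unadjusted p under 0.05. Their part in the levels of the imprinted genes was not tested.

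**Figure D3:**
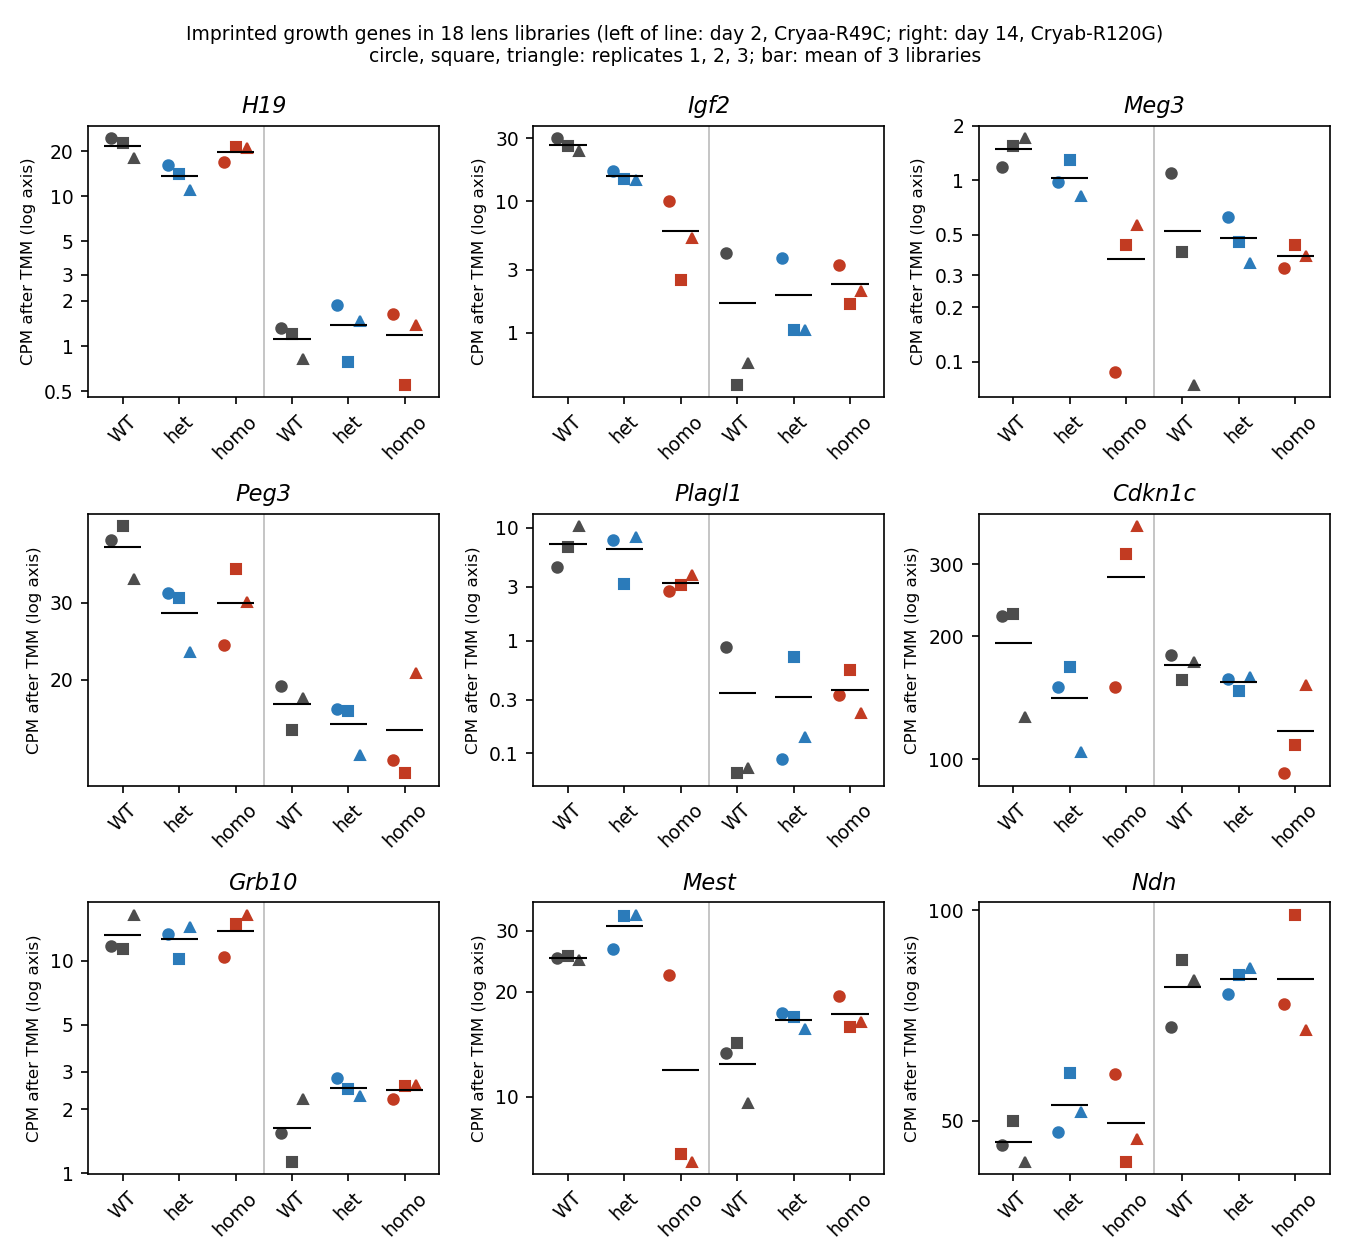
CPM after TMM scaling, on a log axis, of 9 imprinted growth genes in 18 lens libraries, with replicates 1, 2 and 3 as circle, square and triangle and the group mean as a bar; groups left of the grey line are day 2, those right of it day 14. H19, Peg3, Plagl1, Grb10 and Ndn form separate bands at the 2 ages. In the day-2 homo group replicate 1 stands apart from replicates 2 and 3 in Mest.

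In the Cryaa-R49C line at day 2, homo lenses had less Igf2, Meg3 and Mest than WT lenses, and the other 6 genes did not pass the test. That is 3 of 9 genes called, where 9.79% of all tested genes were called. The libraries did not overlap for 4 of 9 genes (these 3 and Plagl1), against 24.5% of all tested genes. Igf2 was at 10.01, 2.51 and 5.28 CPM in homo replicates 1, 2 and 3, all below the 24.0 to 30.3 CPM of the WT libraries and below the 14.5 to 17.1 CPM of the het libraries. The log2 fold change against WT was -2.16 (SE 0.61, adjusted p = 0.0394), to 0.223 of the WT level. This call is near the threshold. It was lost with library totals alone (adjusted p = 0.105) and in 12 of 18 fits that left out 1 library (adjusted p 0.05001 to 0.133), namely without any WT or het library of the line, without homo replicate 2 or 3, or without Cryab-R120G-het replicate 2 or any Cryab-R120G-homo library. The log2 fold change stayed between -2.79 and -1.80 in all 18.

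H19 from the same locus gave 16.9, 21.3 and 20.9 CPM in homo lenses, which overlap the WT values, with a log2 difference of -0.14 (SE 0.27, adjusted p = 0.810). The number of Igf2 counts per H19 count does not depend on any scaling of libraries. It was 1.24, 1.15 and 1.34 in WT, 1.07, 1.05 and 1.33 in het, and 0.592, 0.118 and 0.253 in homo lenses. The homo ratios lay below all others of day 2, with a mean of 0.321 ± 0.244 against 1.24 ± 0.0931 in WT (SD, n = 3). A two-sided exact permutation test gave p = 0.1, the lowest value possible with 3 against 3 libraries. For het the mean was 1.15 ± 0.154 (exact permutation p = 0.4).

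**Figure D4:**
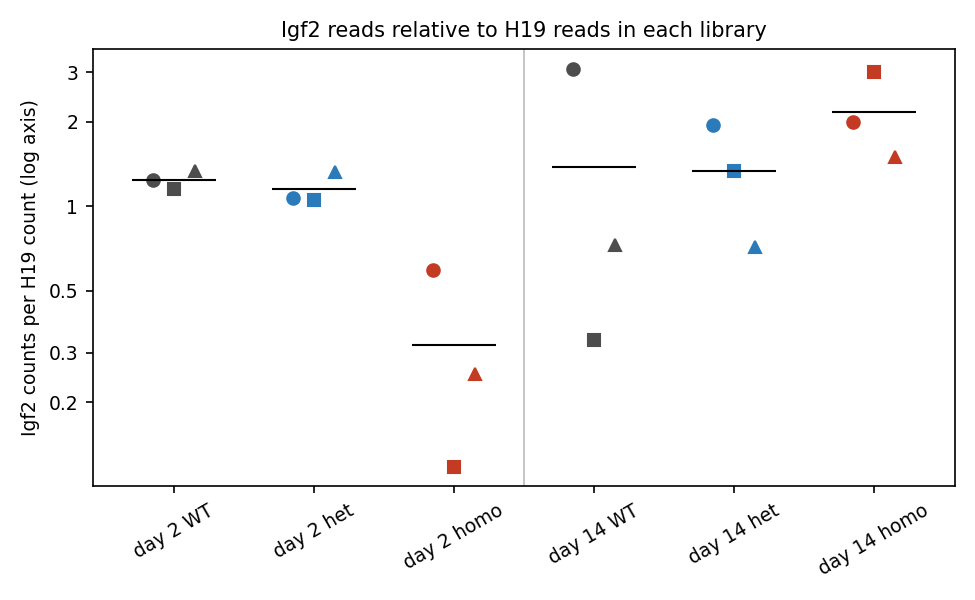
Igf2 counts per H19 count in each library on a log axis, with replicates 1, 2 and 3 as circle, square and triangle and the mean of 3 libraries as a bar. The 3 day-2 homo libraries, at 0.118 to 0.592, lie below the other 6 day-2 libraries, while at day 14 the ratios spread from 0.333 to 3.08 and rest on few counts.

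Meg3 was counted 4, 14 and 15 times in the homo libraries and 28, 46 and 49 times in WT. As levels these are 0.0880, 0.440 and 0.570 CPM against 1.19 to 1.72 CPM, with no overlap. The log2 fold change was -2.08 (SE 0.56, adjusted p = 0.0205), and the adjusted p became 0.0618 without WT replicate 2, 0.0650 without WT replicate 3, and 0.0630 in a fit of these 2 groups alone.

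Mest was uneven among the homo libraries. Replicate 1 had 22.3 CPM, close to the WT libraries at 24.7 to 25.3 CPM, while replicates 2 and 3 had 6.85 and 6.498 CPM. The log2 fold change was -1.06 (SE 0.32, adjusted p = 0.0375), and it was -1.91 without homo replicate 1. It lost its call with library totals alone (-0.58, adjusted p = 0.363), with Gm42418 and the crystallins kept out of the scaling (adjusted p = 0.0566), in a fit of these 2 groups alone (adjusted p = 0.240), and in 6 of 18 fits that left out 1 library (adjusted p 0.05235 to 0.171), namely without any WT library of the line, homo replicate 2 or 3, or Cryab-R120G-het replicate 2.

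Several other measures divided the 3 homo libraries in the same way as Mest. The share of Gm42418 was 2.53% in replicate 1, 24.5% in replicate 2 and 42.6% in replicate 3, and that of crystallins was 61.2%, 37.7% and 23.8%. Summed vessel and mesenchyme markers were at 58.2, 202 and 167 CPM, against 60.1 to 90.8 CPM in WT. Macrophage and microglia markers were at 16.7, 29.1 and 34.5 CPM, against 6.99 to 16.2 CPM. Over the homo group, 6 of 9 fibre markers were lower than in WT, 2 of 8 epithelium markers and 2 of 8 pigment and ciliary epithelium markers were lower, 2 of 12 vessel and mesenchyme markers were higher and 1 lower, and 2 of 8 macrophage and microglia markers were higher. Of skeletal muscle markers 0 of 5 and of inner retina and glia markers 0 of 11 were called by edgeR, against 4 and 1 at an unadjusted p under 0.05 and 1 and 1 by DESeq2. Of photoreceptor, erythrocyte and corneal markers 0 passed by edgeR, by DESeq2 or at an unadjusted p under 0.05. The part of these cells and shares in the Mest, Igf2 and Meg3 values was not tested.

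Plagl1 was also lower in each homo library, at 2.77, 3.11 and 3.84 CPM against 4.47 to 10.4 CPM in WT, but its log2 difference of -1.16 (SE 0.47) had an adjusted p of 0.135. Cdkn1c was at 150, 317 and 372 CPM in homo lenses against 127 to 227 CPM in WT, with a log2 difference of 0.54 (SE 0.29, adjusted p = 0.266). With library totals alone, where the median gene stood at 0.41, the Cdkn1c difference was 0.97 and passed the test (adjusted p = 0.00739). Against het lenses, at 151, 168 and 104 CPM, the Cdkn1c level of homo lenses was higher by 0.99 on the log2 scale (SE 0.29, adjusted p = 0.0366), although homo replicate 1 overlaps the het libraries. That call was lost when any het library, homo replicate 2 or 3, or Cryab-R120G-het replicate 2 was left out (adjusted p 0.0517 to 0.201) and in a fit of these 2 groups alone (adjusted p = 0.178).

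The other call between homo and het lenses was Mest, with het libraries at 26.5, 33.1 and 33.4 CPM and a log2 fold change of -1.37 (SE 0.32, adjusted p = 0.0103). It was lost without homo replicate 2 or 3 (adjusted p = 0.0699 and 0.0574), with library totals alone (0.108) and in a fit of these 2 groups alone (0.132), and the log2 fold change was -2.22 without homo replicate 1. Igf2 and Meg3 differed between homo and het lenses by -1.37 (adjusted p = 0.188) and -1.55 (adjusted p = 0.0942), and H19 by 0.53 (adjusted p = 0.233). The libraries of homo and het lenses did not overlap for these 3 genes and Mest, and for 22% of all tested genes. The 2 called genes of 9 compare with 8.32% of all tested genes called in this comparison. Grb10, Peg3 and Ndn differed from WT by 0.07, -0.42 and 0.09 on the log2 scale in homo lenses, with adjusted p of 0.896, 0.259 and 0.827.

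Of the other genes of these themes in homo against WT lenses, the kinase inhibitor gene Cdkn1a (p21), a target of p53, was higher by 4.14 on the log2 scale (SE 0.64, adjusted p = 0.000662), and it was the 1 of 4 inhibitors called. Over all tested genes, 4.92% were lower and 4.87% higher in this comparison. In the IGF system 3 of 17 were lower and 1 higher. The protease gene Pappa, which frees IGFs from binding proteins, was at -2.05 (SE 0.33, adjusted p = 0.000287). The receptor substrate gene Irs1 was at -0.98 and the protease gene Htra1 at -0.79. Stc2, whose product inhibits the protease of Pappa, was at 3.38 (SE 0.59, adjusted p = 0.000561). Stc2 had 8, 5 and 3 counts in WT libraries and met the filter on low counts in 4 day-2 and 0 day-14 libraries. Its mean was 2.13 CPM in homo, 0.205 in WT and 0.240 in het lenses, so it could be tested only as a gene with more counts in homo lenses. Among 39 other imprinted genes 3 were lower, Slc22a18 at -1.53, Gnas at -1.47 and Nap1l4 at -0.92, and 1 was higher, Impact at 0.84, with a median of -0.13 against 0.00 over all genes. Of 16 fetal growth regulators, Ptn (-1.05) and Ccnd1 (-0.81) were lower. Of 14 proliferation genes 0 were called by edgeR or DESeq2, with 1 at an unadjusted p under 0.05. Of the 12 factors of imprints and DNA methylation, Zfp445 (-1.26), which binds imprinted control regions, and the demethylase gene Tet1 (-1.02) were lower.

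Het lenses of the Cryaa-R49C line gave 0 calls among the 9 genes with edgeR and 0 with DESeq2, where 0.00717% of all tested genes were called. At an unadjusted p under 0.05 there were 2, H19 and Peg3. H19 was at 16.0, 14.0 and 10.9 CPM, below the 17.9 to 24.4 CPM of WT, with a log2 difference of -0.67 (SE 0.27, unadjusted p = 0.0207, adjusted p = 0.836). Peg3 was at 31.6, 30.7 and 23.1 CPM, below the 34.0 to 44.8 CPM of WT, with a log2 difference of -0.49 (SE 0.22, unadjusted p = 0.0378, adjusted p = 0.836). Igf2 was below every WT library as well, with a log2 difference of -0.79 (SE 0.59, adjusted p = 0.836), and Mest was above every WT library, with a log2 difference of 0.31 (SE 0.32, adjusted p = 0.850). These 4 of 9 genes without overlap compare with 21.9% of all tested genes.

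In the Cryab-R120G line at day 14, edgeR's test and DESeq2 called 0 of the 9 genes in het or homo lenses against WT or in homo against het lenses, where 0.00717%, 0.0502% and 0% of all tested genes were called. At an unadjusted p under 0.05 there was 1 gene, Grb10 in het lenses. Grb10 was at 2.79, 2.48 and 2.31 CPM in het and 2.23, 2.58 and 2.60 CPM in homo lenses, all at or above the highest WT library, at 2.23 CPM. The log2 difference was 0.63 in het (SE 0.29, unadjusted p = 0.0430, adjusted p = 1) and 0.60 in homo lenses (SE 0.29, unadjusted p = 0.0506, adjusted p = 0.813).

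Mest in this line was at 17.4, 17.0 and 15.6 CPM in het and 19.5, 15.9 and 16.4 CPM in homo lenses, all above the WT libraries at 9.57 to 14.3 CPM. The log2 differences were 0.43 (SE 0.33, adjusted p = 1) and 0.48 (SE 0.33, adjusted p = 0.923). Cdkn1c was at 92.5, 108 and 152 CPM in homo lenses, all below the 156 to 180 CPM of WT, with a log2 difference of -0.53 (SE 0.29, adjusted p = 0.872). The libraries did not overlap for 2 of 9 genes in het and 3 of 9 in homo lenses against WT, where 10.1% and 9% of all tested genes did not overlap, and for 0 of 9 between homo and het lenses, against 6.86%. Igf2 had 50, 30 and 27 counts in homo, 41, 16 and 15 in het and 37, 6 and 8 in WT lenses, with a log2 difference of 0.61 for homo (SE 0.76, adjusted p = 0.966). Without WT replicate 1 it was 2.22 (adjusted p = 0.213), without WT replicate 2 it was 0.083 (adjusted p = 0.995), and the likelihood-ratio test with robust dispersions called it at 1.81 (adjusted p = 0.0258).

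In the same lenses, the summed level of pigment and ciliary epithelium markers was 6.61 to 8.31 CPM in WT, with Tyr at 0, against 19.5 to 60.1 CPM in het and 17.96 to 32.3 CPM in homo lenses, without overlap. Of these 8 markers 0 were called by edgeR in het and homo lenses against WT, where 7 and 6 had an unadjusted p under 0.05 and DESeq2 called 4 and 2. Of 12 vessel and mesenchyme markers 0 were called by either tool, with 5 in het and 4 in homo lenses at an unadjusted p under 0.05, and their summed level was 25.7 to 33.2 CPM in WT, 31.3 to 46.2 CPM in het and 32.3 to 36.1 CPM in homo lenses. All 5 erythrocyte markers had an unadjusted p under 0.05 in het lenses, with 0 called by either tool. Of the other marker lists and of the gene lists 0 were called by either tool in this line, with 0 to 3 genes of each list at an unadjusted p under 0.05. The part of these cells in the Grb10 and Mest values was not tested.

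Replicate 1 had the highest Igf2 level of its group in WT, het and homo lenses of this line, at 4.07, 3.69 and 3.27 CPM. It also had the highest photoreceptor sum of its group, at 792, 609 and 1190 CPM, against 21.5 to 606 CPM in replicates 2 and 3. The part of retinal RNA in these Igf2 levels was not tested. H19, from 10 to 25 counts a library, Meg3, from 1 to 10, and Plagl1, from 1 to 11, were too sparse at day 14 to bound a small difference between genotypes.

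The homo effects of the 2 lines, which are also effects at 2 ages, were compared directly. The difference passed the test for 0 of 9 genes with edgeR, where 2.91% of all tested genes passed, and 3 genes had an unadjusted p under 0.05. These were Mest, with 1.54 on the log2 scale (SE 0.46, unadjusted p = 0.00280, adjusted p = 0.0753), then Igf2 with 2.78 (SE 0.97, unadjusted p = 0.0126, adjusted p = 0.172) and Cdkn1c with -1.07 (SE 0.41, unadjusted p = 0.0160, adjusted p = 0.194). Without Cryaa-R49C-homo replicate 1 all 3 passed, with 2.39 for Mest, 3.43 for Igf2 and -1.37 for Cdkn1c. In that fit 1800 of 14398 tested genes passed, against 406 of 13938 in the main fit. Without Cryab-R120G-WT replicate 1 Igf2 passed, with 4.39, where 448 of 14549 tested genes passed. DESeq2 called Mest (adjusted p = 0.0341). With the replicate number as a block, edgeR called Igf2, with 3.16 (adjusted p = 0.00757). That block gave both lines the same replicate effect, although their libraries share only a number. Between the WT ages, same-numbered libraries correlated at r = -0.173, 0.147 and -0.193 after the group means were removed, so this call does not rest on shown pairs.

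**Figure D5:**
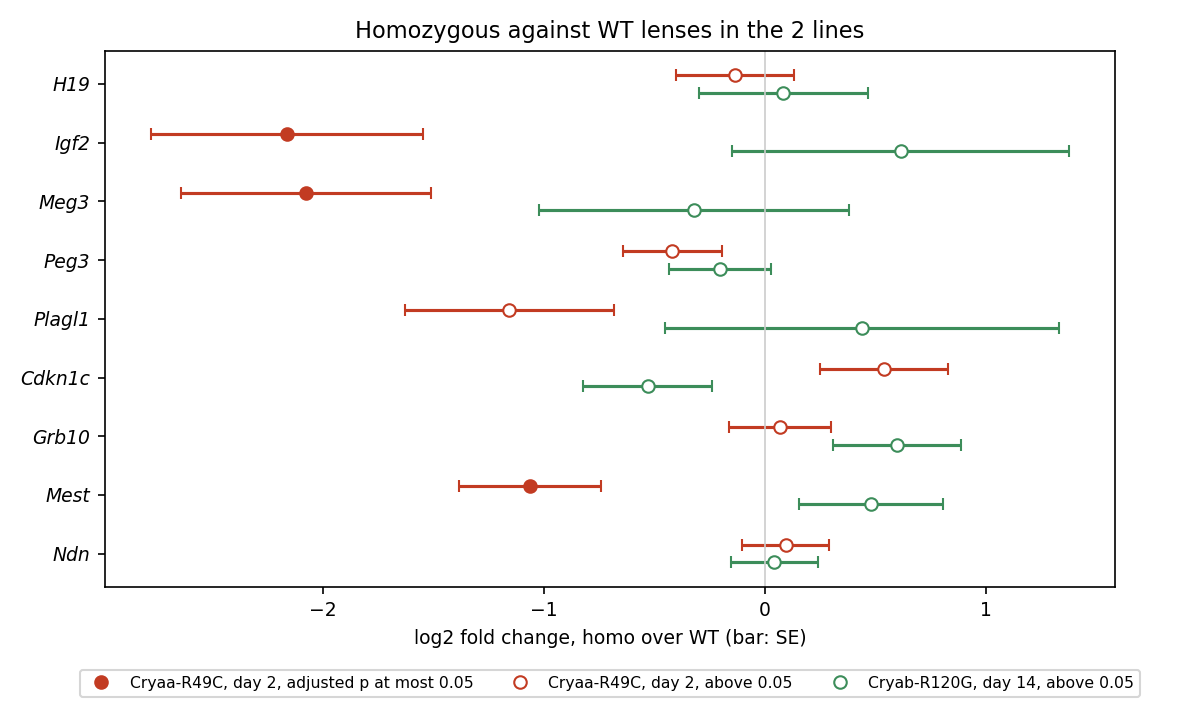
Log2 fold change of homo over WT lenses for 9 imprinted growth genes in the Cryaa-R49C line at day 2 (red) and the Cryab-R120G line at day 14 (green), with SE bars; filled points have an adjusted p of at most 0.05. Igf2, Meg3 and Mest are filled, at -2.16, -2.08 and -1.06 in the Cryaa-R49C line, and no gene is filled in the Cryab-R120G line.

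The genes whose log2 CPM followed each member most closely over the 18 libraries, Igf2 left out, are given as a description, over points that share 2 ages and 6 groups. For H19 these were Lef1, Marcksl1 and Sox11, with Pearson's r from 0.95 to 0.96, for Grb10 Epha5, Lef1 and Cenpe (0.96 to 0.97), and for Plagl1 Nr2e1, Gli1 and Fabp7 (0.95 to 0.97). Peg3 was followed by Ddx26b, Tcf12 and Hcfc1 (0.93 to 0.96) and Mest by Slc13a4, Rhbdd2 and Kcnj13 (0.93 to 0.95). Ndn was followed by B230118H07Rik, Sri and Fam92a (each 0.98), Cdkn1c by Ptpru, Mllt4 and Rai14 (0.92 to 0.94) and the sparsely counted Meg3 by Igf1r, B4galt6 and Pdpr (0.82 to 0.85). Among the members themselves, H19 and Grb10 were closest, with r = 0.94, and H19 and Ndn farthest, with r = -0.94.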

How the data were processed

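Poly-A RNA of pooled lenses was sequenced from 1 end, with 3 libraries for each of 6 groups. The authors aligned reads with STAR 2.0.4b to GRCm38 with Ensembl annotation, counted unambiguous reads per gene with featureCounts 1.4.5, and deposited these counts without normalization; CPM, RPKM and moderated log2 values made from them were left aside. Identical repeats among the 41422 lines were dropped, which left 40800 identifiers.

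The counts were scaled with TMM and tested with edgeR 4.0.16 in R 4.3.3 (quasi-likelihood, robust dispersions, 1 model of 6 groups over 18 libraries, Benjamini-Hochberg threshold 0.05). The 13938 genes kept by filterByExpr were tested (prior degrees of freedom 10.3) rather than every gene with a count, where the prior degrees of freedom became infinite. Log2 CPM used a prior count of 2. Exon lengths and overlaps came from a GENCODE annotation of GRCm38. DESeq2 1.42.0 and other scalings, filters and sample sets were alternatives. The steps were tested on simulated counts. A p-value measures the spread between libraries, each a separate pool.

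The members and gene lists were chosen with earlier results of these data known. Beside the members, the text names at most the 4 largest called changes of each list in a comparison, 8 further called genes and the uncalled Igf1r, Igf2r and Copg2 chosen after their values were seen, and the 3 genes most correlated with each member, over the 18 libraries (those for Igf2 are not reported here) and after the group means were removed. Replicate numbers were taken as pairs only for Cryab-R120G homo against WT, where same-numbered libraries deviated together (r = 0.277, 0.176 and 0.156).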

Additional observations from a re-analysis of the deposited data

Results flagged for a closer look

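Mest was the 1 member for which every homo library moved one way in 1 line and the opposite way in the other. Its log2 fold change of homo against WT lenses was -1.06 in the Cryaa-R49C line at day 2, with all 3 homo libraries below the WT libraries, and 0.48 in the Cryab-R120G line at day 14, with all 3 above. The second value was not called, and the difference between the lines, 1.54 with an adjusted p of 0.0753 by edgeR, did not pass the threshold. Line and age cannot be told apart here.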

How the results depend on the processing

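Between the ages, the number of members called stayed within 6 to 8 when each library was left out in turn, and the direction of Ndn was reversed with library size alone (-0.81, adjusted p = 0.00526), while those of the other 6 called members were kept under every alternative. For Cryaa-R49C homo against WT, 1 member was called in place of 3 when only the groups compared were fitted, and 0 to 4 when a library was left out. For homo against het, in place of 2, it was 1 with library size alone, 4 with every gene with a count, 5 with the likelihood-ratio test and robust dispersions, 0 with only the groups compared, and 0 to 3 when a library was left out. For Cryab-R120G homo against WT the likelihood-ratio test called 1 (Igf2) in place of 0. For the difference between the lines, in place of 0, every gene with a count gave 2 and DESeq2's test 1. The likelihood-ratio test gave 4 and leaving out a library 0 to 3. In edgeR, the replicate block gave 1 (Igf2, 3.16, adjusted p = 0.00757), with the same replicate effect for both lines, whose libraries share only a number. The calls over all genes shifted as well. For homo against het they were 3051 with the likelihood-ratio test, against 1160 in the main fit. Library size alone gave 1022, every gene with a count 1419 and only the groups compared 294. For the difference between the lines, the likelihood-ratio test gave 1455, every gene with a count 798 and DESeq2's test 626, against 406. For Cryab-R120G homo against WT the likelihood-ratio test gave 257 against 7. The cause of these shifts was not tested, except that a fit of fewer groups or libraries has fewer degrees of freedom.

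With the replicate block, Cryab-R120G homo against WT gave 0 called members, as without it, and all 6 libraries correlated best with the library of their own number; over all genes the block raised the calls there from 7 to 18. In the other comparisons the libraries share only a number: 2, 4, 5, 1, 4 and 3 of 6 libraries correlated best with their own number (WT ages, Cryaa-R49C het and homo against WT, homo against het, Cryab-R120G het against WT, homo against het). Of the values of called members, 184 stayed called and 32 lost the call when a library was left out, and 93 stayed, 9 lost the call and 1 reversed under the other alternatives. Over all genes, the calls between the ages split 157 higher to 11436 lower with library size alone, against 1634 to 1603 with TMM. For homo against WT of the Cryaa-R49C line the split was 1884 to 254 against 679 to 686, and the 1365 calls became 478 with only the groups compared, 2886 with the likelihood-ratio test and 731 to 3094 when a library was left out (the extremes without WT replicate 1 and homo replicate 1). The 1160 calls of homo against het ranged from 294 to 4131, the 7 of Cryab-R120G homo against WT from 1 to 302, and the 406 of the difference between the lines from 209 to 1800. With the means of 3 genotypes at each age, 6802 genes were called in place of 3237, and 1782 without Cryaa-R49C-WT replicate 3. The few calls of the other comparisons ranged over 0 to 17 (Cryaa-R49C het), 0 to 140 (Cryab-R120G het) and 0 to 15 (Cryab-R120G homo against het), each highest with every gene with a count. Counts of 4 to 15 for Meg3 in homo lenses and of 1 to 11 for Plagl1 at day 14 limit what can be seen for these genes.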

Other observations

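After the 6 group means were removed, the levels of some members still varied together across the 18 libraries, which share their depth and scaling within a library. Pearson's r of log2 CPM was 0.76 for Peg3 and Cdkn1c, -0.70 for Cdkn1c and Mest and -0.64 for Grb10 and Mest, while it was 0.39 for H19 and Igf2. The 3 genes most like Cdkn1c by this measure were Ralgds, Smap2 and Pitx3, with r from 0.96 to 0.98, and those most like Peg3 were 2310022B05Rik, Tnks2 and Usp9x, with r from 0.96 to 0.98. Those most like Mest were Poldip2, Mfap4 and Cyb561d2 (r = 0.96), and those most like Igf2 were Tnfrsf21, Cacnb2 and Grin2b (r = 0.90). H19 was followed by Cntfr, Cdt1 and Itga9 (0.88 to 0.90), Grb10 by Fat3, Dock11 and Slc29a4 (0.83 to 0.89), Plagl1 by Gm14634, Otop3 and Pknox2 (0.90 to 0.93), Ndn by Dnajc4, Tomm40l and Commd8 (0.93 to 0.95) and Meg3 by Fam43a, Pim3 and Srrm1 (0.92 to 0.93). With 3 libraries a group, 1 library that stands apart can set such a value.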
